A study of Homo sapiens with 15 samples.

Results

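Serine is made from the glycolytic intermediate 3-phosphoglycerate by PHGDH, PSAT1 and PSPH in turn. Serine hydroxymethyltransferase then passes a carbon of serine to tetrahydrofolate, and the folate-bound carbon is oxidized in steps to formate. This set of reactions runs in parallel in mitochondria and in the cytosol, by separate enzymes. The mitochondrial arm is usually the oxidative one in proliferating cells, exporting formate that the cytosol uses for purine and thymidylate synthesis. The transcription factor ATF4, which is induced when amino acids run short or when the integrated stress response is triggered, is known to drive several genes of serine synthesis and of the mitochondrial arm.

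The transcripts of 10 enzymes and carriers of these reactions were followed. They comprised the 3 serine synthesis enzymes, 5 proteins of the mitochondrial folate arm (SHMT2, MTHFD2, MTHFD1L, ALDH1L2 and the folate carrier SLC25A32) and 2 cytosolic folate enzymes (SHMT1 and MTHFD1). Genes were chosen by name and found on the arrays through the RefSeq accession of each probe, which gave 13 probes. All 10 genes passed the filter on dim probes, among 26826 features tested.

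A2058 cells, an established human malignant melanoma line, were cultured in EMEM with fetal bovine serum and treated for 8 hours. The 5 groups were DMSO, NP at 3 μM, water (W), metformin at 5000 μM (MET) and phenformin at 50 μM (PHEN), with 3 replicate arrays each and 15 arrays in all. Metformin and phenformin are biguanides, which inhibit complex I of the respiratory chain. The arrays are labelled NP, while the series is titled for neopetasin. The study's methods describe petasin with the same cell line, dose and time, and the label NP is kept here. The question addressed was how serine and folate enzyme transcripts responded to NP against DMSO and to each biguanide against water, and whether the mitochondrial and cytosolic arms responded alike. The study's methods call the replicates biological, and the labels number them without naming the cultures.

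Per array, 25804 to 45044 of 58201 probes were well above background and none was saturated. The highest counts were those of water replicate 1 (45044) and metformin replicate 1 (44451), where phenformin replicate 1 had 34984. Whether this bears on the phenformin pairs was not tested. Precision is limited by having 3 arrays in a group. The DMSO and NP arrays lay on 2 slides and the water, metformin and phenformin arrays on 2 others, so that slide and vehicle cannot be told apart. Replicates 1 and 2 shared a slide in each set, and replicate 3 was on a slide of its own. Of 8 melanocyte lineage genes, 7 were above background on all 15 arrays, and TYR was above it on 13. Median log2 levels were 2.49 to 4.85 for DCT, SOX10, PMEL, MITF and S100B. They were -1.59, -2.11 and -3.18 for MLANA, TYRP1 and TYR. AXL, NGFR and EGFR, markers of dedifferentiated melanoma, were above background on 15, 15 and 6 arrays. The epithelial marker EPCAM was above background on no array. PTPRC, PECAM1 and DES, which mark leukocytes, endothelium and muscle, were above background on all 15 arrays at median log2 levels of -2.10, -2.52 and 0.36. Their part in the results was not tested. On a bulk array, more transcript per cell and more expressing cells cannot be told apart.

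Levels below are log2 intensities relative to the 75th percentile of the same array, so that 0 is that percentile. Changes are log2 fold changes of these levels, treated minus vehicle, with SE from limma over 3 arrays per group. A gene was called changed at a Benjamini-Hochberg adjusted p of at most 0.05 over all features and a fold change of at least 1.5. Levels of different genes come from different probes and are not compared.

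The largest changes among the 10 genes after NP were those of PSPH, MTHFD2 and PSAT1, at 1.93-fold, 1.76-fold and 1.75-fold over DMSO, and they narrowly missed the call. Adjusted p was 0.0559 for PSPH and 0.0709 for PSAT1 and MTHFD2 in limma's test, so 0 of 10 genes were called, against 0.0373% of all features. That fit used the replicate number as a block across both vehicle sets. The numbers were taken to pair the arrays within each vehicle set, although replicates 1 and 2 shared a slide there. With the replicate number as a block within each set, 3 of 10 were called, against 0.227% of all features. They were PSPH (limma adjusted p = 0.0185), MTHFD2 (0.0199) and PSAT1 (0.0435). The cytosolic enzymes SHMT1 and MTHFD1 changed by -0.03 and -0.05 with adjusted p of 1.00 each. At an unadjusted p of at most 0.05, 5 of 10 genes were higher after NP and 0 were lower, where 2.74% of all features were higher and 2.04% lower. The median change over the 10 genes was 0.31, and that over all features was -0.02. On data simulated for this comparison, 40 of 100 changes of 0.8 passed the call. These changes were put into features picked at random, with independent noise, so that rate is not one for these 10 genes.

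Neither biguanide led to a call among the 10 genes. After metformin 0 of 10 were called, as were 0% of all features, and the smallest adjusted p of any feature was 0.168. At an unadjusted p of at most 0.05, 3 genes were higher after metformin, all of them serine synthesis enzymes, against 1.35% of all features, and 0 were lower, against 1.19%. After phenformin 0 of 10 were called, against 0.0261% of all features, while 5 genes were higher at the unadjusted threshold, against 0.746%, and 0 were lower, against 1.7%. The genes behind both counts of 5 were PHGDH, PSAT1, PSPH, SHMT2 and MTHFD2. With the block within each vehicle set 0 of 10 genes were called for either biguanide, against 0.00746% of all features for metformin and 0.0335% for phenformin. Metformin and phenformin were compared with the same water arrays. The unadjusted counts of genes that were higher with that block were 6 for NP, 5 for metformin and 6 for phenformin, against 5.57%, 4.48% and 2.55% of all features. SHMT2 and MTHFD2 joined the serine synthesis enzymes after metformin, and MTHFD1L joined the others after NP and phenformin. With that block 0 genes were lower, against 6.39%, 5.46% and 4.72%. The medians over the 10 genes were 0.18 for metformin and 0.23 for phenformin, and those over all features were -0.0002 and -0.05.

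**Figure D1:**
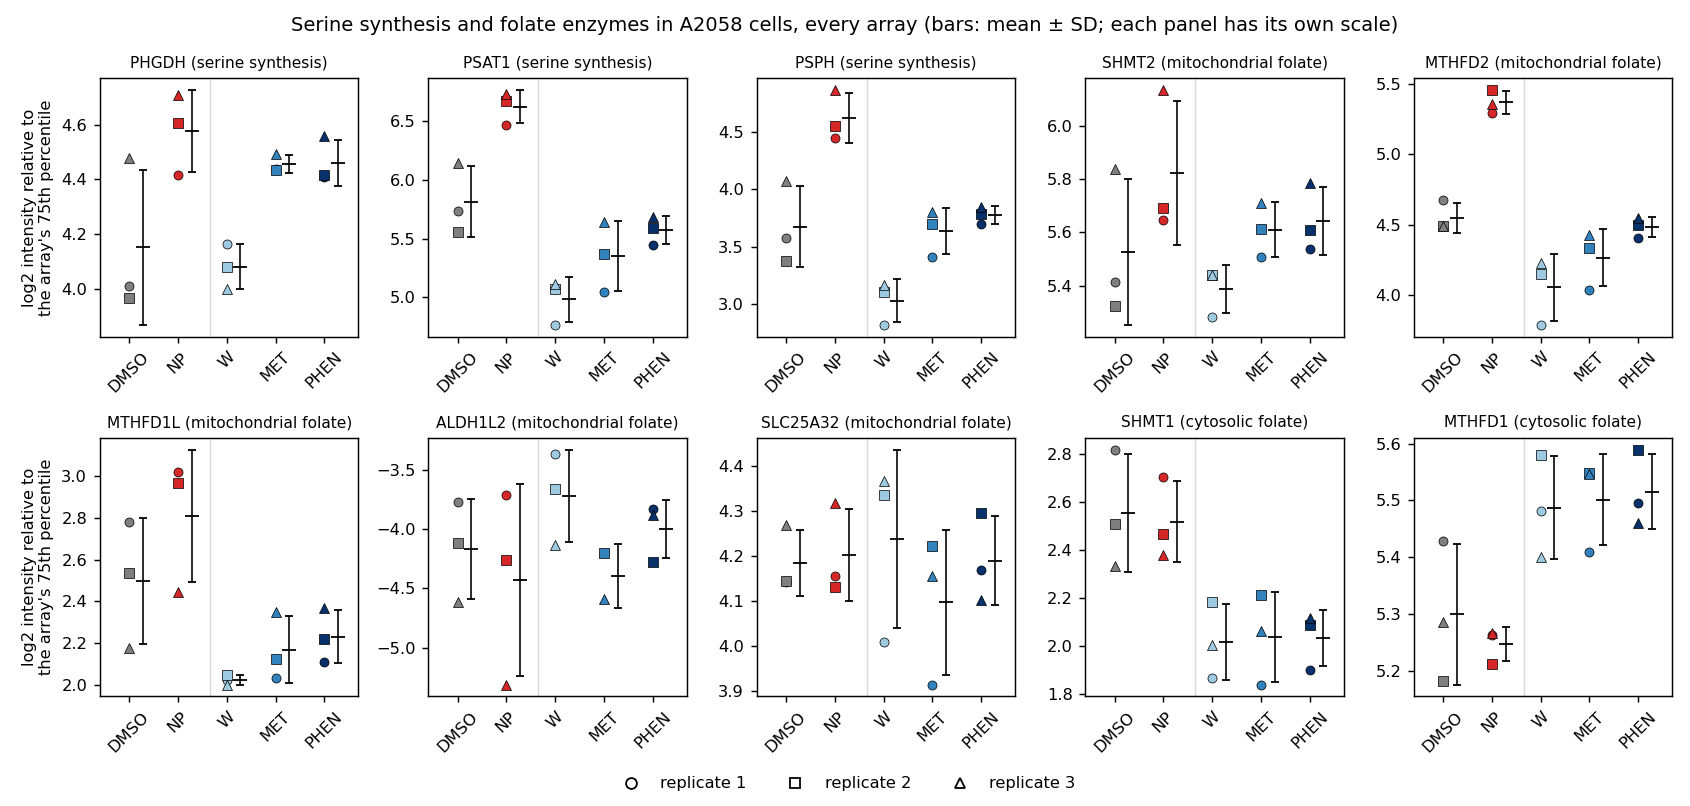
Log2 intensity relative to the array's 75th percentile (vertical axis, a separate scale in each panel) of the 10 genes on all 15 arrays, by group. Symbols mark the replicate number and bars the mean ± SD of 3 arrays (2 for ALDH1L2 after metformin). The NP arrays of PSAT1, PSPH and MTHFD2 lie above every other array, while the treated and vehicle arrays of SHMT1 and MTHFD1 overlap.

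PHGDH, accession NM_006623, oxidizes 3-phosphoglycerate in the first and committed step of serine synthesis. Its levels were 4.01, 3.96 and 4.48 after DMSO and 4.42, 4.61 and 4.71 after NP. The third DMSO array lay above the first NP array, and the groups overlapped. With water the levels were 4.16, 4.08 and 4.00, with metformin 4.44, 4.43 and 4.49, and with phenformin 4.41, 4.42 and 4.56. All biguanide arrays lay above all water arrays. The log2 changes were 0.43 ± 0.12 (SE) for NP, 0.38 ± 0.12 for metformin and 0.38 ± 0.12 for phenformin. The unadjusted p values in limma's test were 0.0065, 0.013 and 0.012, and none passed the adjustment (0.707, 1.00 and 1.00).

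PSAT1, accession NM_058179, transfers an amino group from glutamate to phosphohydroxypyruvate in the middle step. Its levels were 5.74, 5.56 and 6.14 after DMSO and 6.46, 6.67 and 6.73 after NP. Every NP array was above every DMSO array, as it was for PSPH and MTHFD2 but not for the other 7 genes. In this direction 3.05% of 26628 features with a value on every array were separated. With water the levels were 4.76, 5.07 and 5.11, and with metformin 5.05, 5.37 and 5.64. The first metformin array lay below water replicates 2 and 3. With phenformin the levels were 5.44, 5.59 and 5.68, all above water. The log2 change was 0.81 ± 0.12 for NP, 0.37 ± 0.12 for metformin and 0.59 ± 0.12 for phenformin. For the biguanides limma's unadjusted p was 0.014 and 0.0008, with adjusted p of 1.00 and 0.706.

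PSPH, accession NM_004577, removes the phosphate and releases serine in the last step. Its levels were 3.58, 3.38 and 4.07 after DMSO and 4.45, 4.55 and 4.87 after NP. With water they were 2.82, 3.101 and 3.17, with metformin 3.41, 3.70 and 3.80, and with phenformin 3.70, 3.79 and 3.85. Treated and vehicle arrays did not overlap for any of the 3 compounds. The log2 change was 0.95 ± 0.13 for NP, 0.61 ± 0.13 for metformin and 0.75 ± 0.13 for phenformin, the largest of the 10 genes in each comparison. The 3 metformin pairs agreed closely, at 0.60, 0.59 and 0.63. Limma's adjusted p was 1.00 for metformin, with an unadjusted p of 0.0008, and 0.261 for phenformin, with an unadjusted p of 0.0002. With the block within each vehicle set the adjusted p for phenformin was 0.0699. Whether the probe also binds transcripts of related sequence was not tested.

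Averaged over the 3 enzymes, the serine synthesis change was 0.73 ± 0.23 (SD, n = 3 pairs) for NP, 0.45 ± 0.09 for metformin and 0.57 ± 0.05 for phenformin. All 9 pair values were positive. The NP pairs ran from 0.54 to 0.98 and overlapped the phenformin pairs, at 0.51 to 0.60.

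SHMT2, accession NM_005412, is the mitochondrial serine hydroxymethyltransferase, the entry of serine carbon into mitochondrial folate. Its levels were 5.41, 5.32 and 5.84 after DMSO and 5.65, 5.69 and 6.13 after NP. Replicate 3 was the highest of both groups, and the groups overlapped although each of the 3 pairs was higher after NP. With water the levels were 5.28, 5.44 and 5.44, with metformin 5.51, 5.61 and 5.71, and with phenformin 5.54, 5.61 and 5.79. Both biguanide groups lay above water on every array. SHMT2 changed by 0.30 ± 0.11 for NP, 0.22 ± 0.11 for metformin and 0.26 ± 0.11 for phenformin. Their unadjusted p values in limma's test were 0.022, 0.070 and 0.042.

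MTHFD2, accession NM_006636, is the mitochondrial methylenetetrahydrofolate dehydrogenase and cyclohydrolase, an enzyme high in embryonic and tumor cells. Its levels were 4.67, 4.49 and 4.49 after DMSO and 5.29, 5.45 and 5.36 after NP. No NP array came near a DMSO array, and the 3 pairs differed by 0.62, 0.97 and 0.87. With water the levels were 3.79, 4.15 and 4.23, with metformin 4.04, 4.33 and 4.42, and with phenformin 4.40, 4.50 and 4.55. All phenformin arrays were above all water arrays, whereas the metformin and water arrays overlapped. The log2 change was 0.82 ± 0.12 for NP, 0.43 ± 0.12 for phenformin (unadjusted p = 0.0062 in limma's test) and 0.21 ± 0.12 for metformin (unadjusted p = 0.12).

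The MTHFD2 probe was printed at 10 spots on each array, which gave a measure of technical error within an array. The SD of the spots was 0.03 to 0.07 per array, against an SD of 0.07 to 0.24 between the arrays of a group. The lowest NP spot, at 5.20, was above the highest DMSO spot, at 4.74. The lowest phenformin spot, at 4.2981, was just under the highest water spot, at 4.3014, and the lowest metformin spot, at 3.98, lay well inside the range of the water spots.

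**Figure D2:**
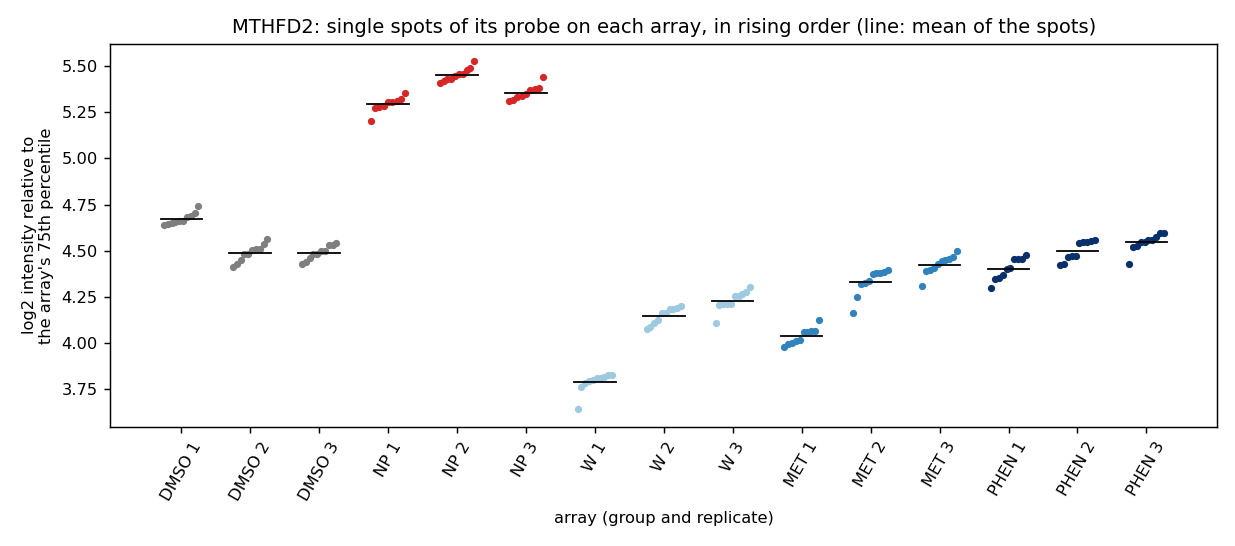
Log2 intensity relative to the array's 75th percentile (vertical axis) of the single spots of the MTHFD2 probe on each of the 15 arrays (horizontal axis), in rising order within an array, with a line at their mean. Points are technical repeats of 1 hybridization. The spots of the 3 NP arrays start at 5.20 and those of the 3 DMSO arrays reach 4.74.

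MTHFD1L, the mitochondrial formyltetrahydrofolate synthetase that releases formate, had 3 probes. The brightest, accession NM_015440, read 2.78, 2.53 and 2.18 after DMSO and 3.02, 2.96 and 2.45 after NP. The groups overlapped, and each pair was higher after NP, by 0.24, 0.43 and 0.27. With water it read 2.02, 2.05 and 2.00, with metformin 2.03, 2.13 and 2.35, and with phenformin 2.11, 2.22 and 2.37. The phenformin arrays were all above water. The log2 change was 0.31 ± 0.18 for NP, 0.15 ± 0.18 for metformin and 0.21 ± 0.18 for phenformin. The other probes gave 0.29 ± 0.12 and 0.31 ± 0.10 for NP. Their unadjusted p in limma's test was 0.034 and 0.012, where that of the brightest probe was 0.12. They disagreed on phenformin, at 0.30 and 0.01, and on metformin, at 0.19 and 0.03.

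ALDH1L2, accession NM_001034173, is the mitochondrial 10-formyltetrahydrofolate dehydrogenase, which turns formylated folate into carbon dioxide with reduction of NADP. Its signal was dim and was well above background on 11 of 15 arrays, and on 1 of 3 DMSO arrays and 1 of 3 NP arrays. The levels were -3.77, -4.11 and -4.61 after DMSO and -3.71, -4.26 and -5.31 after NP. With water they were -3.36, -3.66 and -4.14, and with phenformin -3.83, -4.28 and -3.88. Metformin gave -4.20 and -4.59 for replicates 2 and 3, while the spot of replicate 1 was an outlier and was treated as missing. Both metformin arrays measured were below all water arrays. The log2 changes were -0.26 ± 0.26, -0.47 ± 0.31 and -0.28 ± 0.26 for NP, metformin and phenformin, each within 2 SE of 0.

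SLC25A32, accession NM_030780, carries folate across the inner mitochondrial membrane. Its levels were 4.14, 4.14 and 4.27 after DMSO and 4.15, 4.13 and 4.32 after NP. With water they were 4.01, 4.34 and 4.37, with metformin 3.91, 4.22 and 4.15, and with phenformin 4.17, 4.30 and 4.10. All groups overlapped their vehicle, and the group means spanned only 0.14 in all. The log2 change was 0.02 for NP, with a 95% interval of -0.22 to 0.26, -0.14 for metformin and -0.05 for phenformin.

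SHMT1, accession NM_004169, is the cytosolic counterpart of SHMT2. The brighter of its 2 probes read 2.82, 2.51 and 2.33 after DMSO and 2.71, 2.47 and 2.38 after NP. With water it read 1.87, 2.18 and 2.00, with metformin 1.84, 2.21 and 2.06, and with phenformin 1.90, 2.09 and 2.11. Treated and vehicle arrays overlapped throughout. The log2 changes were -0.03, 0.02 and 0.02, each ± 0.16, and the 95% interval for NP was -0.38 to 0.32. The second probe gave -0.16 for NP and 0.10 for each biguanide.

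MTHFD1, accession NM_005956, is the trifunctional cytosolic enzyme that interconverts methylene, methenyl and formyl folate and formate. Its levels were 5.43, 5.18 and 5.29 after DMSO and 5.26, 5.21 and 5.27 after NP. With water they were 5.48, 5.58 and 5.40, with metformin 5.41, 5.55 and 5.55, and with phenformin 5.50, 5.59 and 5.46. No treated group was separated from its vehicle. The log2 change was -0.05 for NP, with a 95% interval of -0.27 to 0.17, 0.01 for metformin and 0.03 for phenformin.

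**Figure D3:**
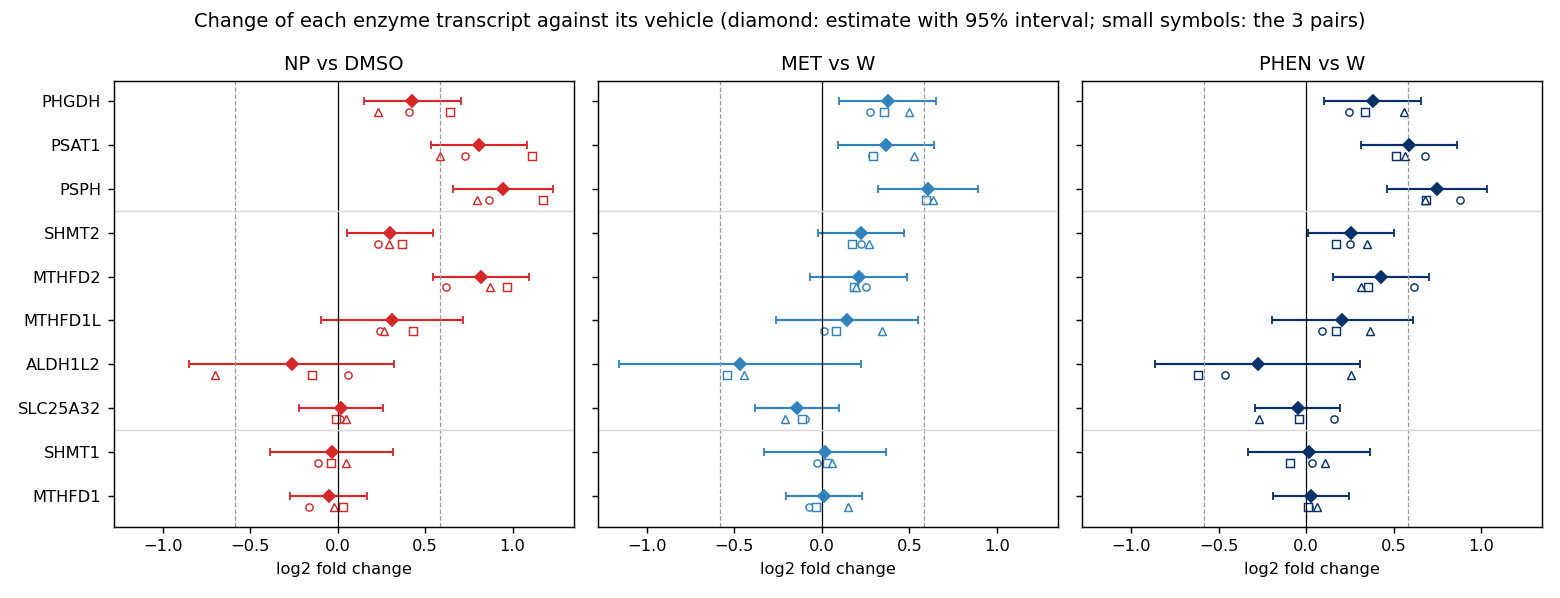
Log2 fold change (horizontal axis) of the 10 genes for NP against DMSO and for metformin (MET) and phenformin (PHEN) against water (W), with the 95% interval from limma and the 3 replicate pairs as small symbols (circle, square and triangle for pairs 1, 2 and 3). Dashed lines mark a fold change of 1.5. The serine synthesis enzymes and MTHFD2 lie to the right, at 0.43 to 0.95 for NP, and SHMT1 and MTHFD1 lie within 0.06 of 0 in all 3 comparisons.

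Groups that did not overlap were counted over all 10 genes, beside the share among the 26628 features with a value on every array. After NP, 3 genes were wholly above DMSO and 0 wholly below it, against 3.05% and 3.52% of these features. After metformin 3 genes were wholly above water (PHGDH, PSPH and SHMT2), against 3.28%. After phenformin 6 genes were (PHGDH, PSAT1, PSPH, SHMT2, MTHFD2 and MTHFD1L), against 3.33%. None was wholly below water after phenformin, against 4.92%. After metformin the share below water was 2.9%, and ALDH1L2 was the only one of the 10 genes there. It was separated on 2 arrays against 3, a weaker condition than the 3 against 3 behind that share.

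The mitochondrial arm was then set against the cytosolic arm within each replicate pair, as the mean log2 change of the mitochondrial genes minus that of the cytosolic ones. No p is given for these averages over chosen genes. For NP the difference was 0.28 ± 0.12 (SD, n = 3 pairs), at 0.37, 0.33 and 0.14. It was 0.09 ± 0.04 for phenformin. For metformin it was 0.01 ± 0.12, at 0.15, -0.04 and -0.07, but ALDH1L2 was missing in pair 1, whose value averages 4 mitochondrial genes and those of the other pairs 5. Without the dim ALDH1L2 it was 0.40 ± 0.04 for NP, 0.09 ± 0.05 for metformin and 0.19 ± 0.08 for phenformin, and all 9 pair values were positive. The cytosolic mean itself was -0.04 ± 0.08, 0.02 ± 0.08 and 0.02 ± 0.06.

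Enzymes that run the same reaction in the different compartments were also compared. SHMT2 changed by 0.33 ± 0.08 more than SHMT1 after NP, by 0.20 ± 0.05 more after metformin and by 0.24 ± 0.02 more after phenformin. MTHFD2 changed by 0.87 ± 0.08 more than MTHFD1 after NP, by 0.20 ± 0.14 after metformin and by 0.40 ± 0.18 after phenformin. For MTHFD1L against MTHFD1 the values were 0.36 ± 0.07, 0.13 ± 0.06 and 0.18 ± 0.12. With the brightest probe of each gene, the mitochondrial enzyme had the higher change in every pair of arrays. With 1 of the other MTHFD1L probes this held in 2 of 3 metformin pairs and 1 of 3 phenformin pairs, and with the second SHMT1 probe in 2 of 3 metformin pairs. In the NP pairs it held with every probe, and MTHFD2 had the widest gap after NP. The mitochondrial genes did not move together, since MTHFD2 lay at 0.82 and SLC25A32 at 0.02 after NP.

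**Figure D4:**
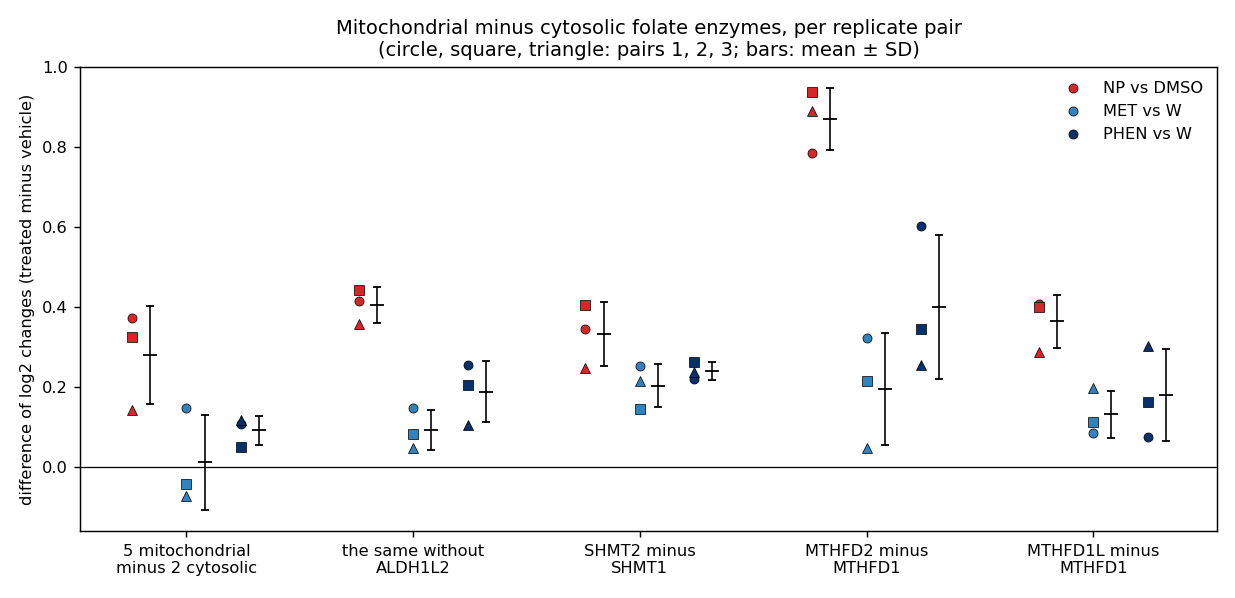
Difference of log2 changes (vertical axis) between mitochondrial and cytosolic folate enzymes in each replicate pair, for NP against DMSO and for metformin (MET) and phenformin (PHEN) against water (W), with bars at the mean ± SD of 3 pairs. The NP pairs of MTHFD2 minus MTHFD1, at 0.79 to 0.94, lie above all other values.

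The compounds were compared with each other as differences of their log2 changes, each against its own vehicle, and 0 of 10 genes were called in any of the 3 such comparisons, as were 0% of all features. MTHFD2 had the widest difference between NP and metformin, 0.61 with a 95% interval of 0.22 to 1.00 (limma unadjusted p = 0.0060, adjusted p = 1.00). PSAT1 differed by 0.44 in the same comparison, with an interval of 0.05 to 0.83 (unadjusted p = 0.029, adjusted p = 1.00). These were the 2 of 10 genes higher at the unadjusted threshold, against 1.42% of all features. For PSPH the difference was 0.34, with an interval of -0.07 to 0.74.

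Against phenformin the NP change of MTHFD2 was larger by 0.39, with an interval of -0.0003 to 0.78 (limma unadjusted p = 0.0501). The differences for PSAT1 and PSPH were 0.22 and 0.20, with intervals of -0.17 to 0.61 and -0.21 to 0.60. For PHGDH the NP change differed from that of metformin by 0.05, with an interval of -0.34 to 0.44, and from that of phenformin by 0.04, with an interval of -0.35 to 0.44. These intervals leave room for a difference in either direction and do not show equal responses. Between phenformin and metformin the largest differences were 0.22 for PSAT1 (interval -0.05 to 0.49) and 0.22 for MTHFD2 (-0.06 to 0.49). Only 1 dose of each compound was used, and the 3 doses differ in molar terms. DMSO and water arrays lay on different slides, so that the NP comparisons with biguanides also set one pair of slides against the other.

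**Figure D5:**
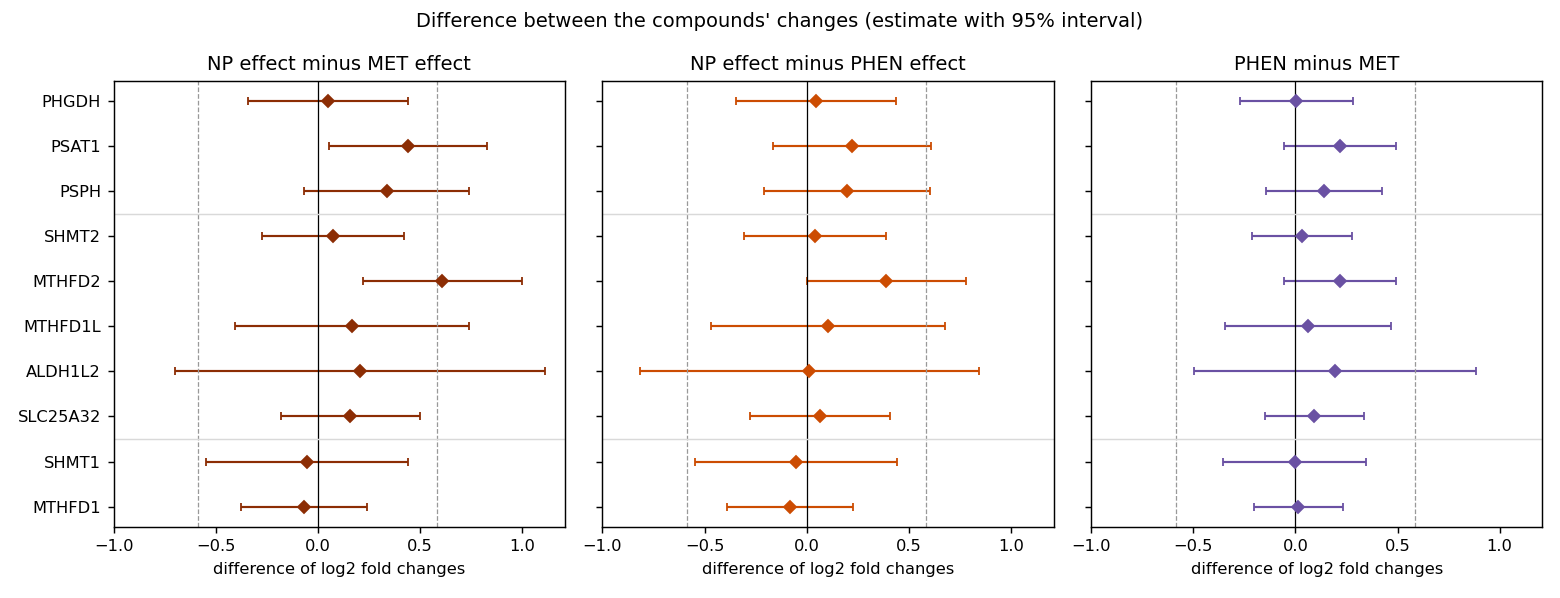
Difference of log2 fold changes between compounds (horizontal axis), each against its own vehicle, for the 10 genes, with 95% intervals from limma. Dashed lines mark a ratio of 1.5. The intervals of MTHFD2 and PSAT1 for NP minus metformin (MET) lie above 0, and every interval for phenformin (PHEN) minus metformin includes 0.

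The vehicles themselves differed in several of these transcripts. With the brightest probe, PSAT1 was higher after DMSO than after water by 0.83, PSPH by 0.65, SHMT1 by 0.53, MTHFD2 by 0.50 and MTHFD1L by 0.47 in the group means. For MTHFD1L and SHMT1 this depended on the probe. Another MTHFD1L probe was lower after DMSO, at 1.16, 1.45 and 1.255 against 1.81, 1.75 and 1.72 with water. The remaining MTHFD1L probe was higher after DMSO on every array. The second SHMT1 probe overlapped, at 0.64, 0.42 and 0.52 after DMSO and 0.62, 0.64 and 0.23 with water. ALDH1L2 and MTHFD1 were lower after DMSO, at -0.45 and -0.19. SLC25A32, PHGDH and SHMT2 differed by -0.05, 0.07 and 0.14. These are differences between sets of slides as well as between vehicles, which cannot be told apart. The methods of the study compare the biguanides with DMSO, while the series record gives water as their control, which is used here. With DMSO as the comparator, PSAT1 changed by -0.46 after metformin and -0.24 after phenformin, and MTHFD2 changed by -0.29 and -0.07. PHGDH stayed higher in that comparison, by 0.30 and 0.31. SHMT2 changed by 0.08 and 0.12, each ± 0.11 (SE), and PSPH by -0.04 and 0.10. The median of all features there was 0.13 and 0.07.

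A list of 39 other genes of serine, glycine, folate and methionine metabolism was examined beside the 10 genes, and 37 of them were tested. None of the 37 was called in any comparison, and at the unadjusted threshold 4 were higher after NP, 3 after metformin and 2 after phenformin. Those are 10.8%, 8.11% and 5.41% of the list, where 2.74%, 1.35% and 0.746% of all features were higher, and 0.0373%, 0% and 0.0261% were called. After NP these were CBS at 0.68, the neutral amino acid carriers SLC1A4 at 0.51 and SLC1A5 at 0.46, and the serine racemase SRR at 0.24, with unadjusted p in limma's test of 0.0030 to 0.025. CBS condenses serine with homocysteine, and it was higher by 0.60 after metformin and 0.75 after phenformin. SLC1A5 was higher after both biguanides too, by 0.38 and 0.41. The glycine cleavage gene AMT was higher after metformin by 0.45, while GLDC, of the same complex, and the methionine synthase MTR changed by -0.33 and -0.31, also past the unadjusted threshold. The medians of the 37 genes were 0.03, -0.05 and 0.02 after NP, metformin and phenformin. Those of the 12 other mitochondrial genes were -0.004, -0.09 and -0.02. For the 12 other cytosolic genes they were 0.02, -0.05 and 0.01. The higher mitochondrial mean of the chosen genes after NP was not seen in these medians. ATF4 itself was higher by 0.60 after NP (unadjusted p = 0.0047, adjusted p = 0.621), by 0.52 after metformin and by 0.56 after phenformin.

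For PSPH, PSAT1, MTHFD2 and SHMT2, the nearest transcripts by their 9 treated-minus-vehicle differences were sought among features with a gene symbol. Features without a symbol, though part of the 26627 with all 9 values, were passed over. Distance was the root mean square difference over the 9 values, which share their vehicle arrays. Nearest to PSPH were TRIB3 at a distance of 0.089, TSC22D3 at 0.140 and VEGFA at 0.156. TRIB3 changed by 1.00, 0.53 and 0.70 after NP, metformin and phenformin. Nearest to PSAT1 were the cystine carrier SLC7A11 at 0.120, the glycyl-tRNA synthetase GARS1 at 0.143 and CEBPG at 0.150. MTHFD2 lay nearest to LINC00662 at 0.090, HOXB9 at 0.111 and CEBPG at 0.123. SHMT2 lay nearest to ZNF582-DT at 0.067, the glutamyl-prolyl-tRNA synthetase EPRS1 at 0.076 and ZBED3 at 0.077. No other of the 10 genes was among these nearest transcripts.

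Promoter sequence was examined because several of the genes changed in the same direction. RefSeq windows on GRCh38.p14, of 250 bases before and 50 after a start site, were found for 6 of the 10 genes: PHGDH, PSAT1, MTHFD2, MTHFD1L, SHMT1 and MTHFD1. The letters TGATGNAA, the form of element that ATF4 binds with C/EBP partners, occurred on either strand in 3.62% of 35116 windows. Among the 6 genes only MTHFD1L held them. The E-box CACGTG, bound by MYC and related factors, occurred in 7.26% of windows, and MTHFD1L and MTHFD1 held it. The letters CCAAT, the box bound by NF-Y, were searched after the windows had been read. They occurred on either strand in 34.6% of all windows and in a window of 10846 of 27305 genes. Each of the 6 genes held them in a window. A match is a description of letters and not a site of binding.

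The 250 bases before the start sites of PSAT1 and MTHFD2, the genes among these with the largest change after NP, are shown with CCAAT in capitals, at chr9:78296875-78297124 and chr2:74198365-74198614, both on the plus strand. PSAT1 held it 3 times and MTHFD2 held it 2 times, and neither held TGATGNAA or CACGTG. In their own 250 bases SHMT1 held CCAAT 2 times, and PHGDH and MTHFD1 held it 1 time each.
PSAT1: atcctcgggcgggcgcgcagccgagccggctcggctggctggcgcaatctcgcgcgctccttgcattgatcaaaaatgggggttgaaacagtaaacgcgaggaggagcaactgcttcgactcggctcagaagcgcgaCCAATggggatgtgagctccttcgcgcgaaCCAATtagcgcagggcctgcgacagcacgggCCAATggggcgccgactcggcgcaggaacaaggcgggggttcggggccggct
MTHFD2: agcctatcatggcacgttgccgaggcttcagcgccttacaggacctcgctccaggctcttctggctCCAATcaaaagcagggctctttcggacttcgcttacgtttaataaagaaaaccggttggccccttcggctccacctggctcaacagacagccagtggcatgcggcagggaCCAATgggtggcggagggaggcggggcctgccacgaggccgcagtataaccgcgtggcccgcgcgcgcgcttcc
The MTHFD1L and MTHFD1 matches are shown with the matched letters in capitals, at chr6:150866346-150866375, chr6:150866321-150866348 and chr14:64388327-64388354 in this order, all on the plus strand. MTHFD1L has several annotated start sites, so that its matches lie before some of them and after another.
MTHFD1L, TGATGNAA: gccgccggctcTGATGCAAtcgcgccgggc
MTHFD1L, CACGTG: acgcccggctcCACGTGcgcagccggcc
MTHFD1, CACGTG: cagtccctaagCACGTGggttgggttgt
MTHFD1L, with both elements, changed by 0.31 after NP, and MTHFD1, with the E-box alone, by -0.05. PSAT1 and MTHFD2 held neither in this window, and no window was found for PSPH. Whether these letters bear on the changes was not tested.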

How the data were processed

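RNA from A2058 cells was labeled with Cy3 and hybridized to Agilent arrays by the authors, who deposited spot intensity after background subtraction and detrending by Feature Extraction (10.7.3.1 in the file headers, 9.1 in the submitters' processing notes), without normalization between arrays. The authors also deposited log2 values scaled to a common 75th percentile and floored at 4, used as an alternative. The deposited score flags for outlier spots and signal above background served as filters.

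Control spots were removed, 1853 of 913515 outlier spots were set to missing, repeat spots were averaged, and values were centered on the log2 75th percentile of their array. The filter kept 32914 of 58201 probes, those well above background throughout 1 group or more. The brightest probe stood for a gene. Of 33080 probes with a RefSeq accession, 31104 were matched to a symbol. Probe positions belong to another build than the gene table used here, and no gene coordinates are given.

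Group and replicate number were the terms of a model of all 15 arrays, fitted with limma 3.58.1 in R 4.3.3 (empirical Bayes, two-sided, Benjamini-Hochberg adjustment over all features). Other steps used Python 3.11.15, pandas 2.3.3, numpy 2.4.6 and matplotlib 3.10.9. The fit was tested on simulated data, in which 40 of 100 changes of 0.8 and 71 of 100 of 1.6 were called, with 3 false calls. The simulation had independent noise and a replicate effect shared by both vehicle sets, unlike the arrays. Same-numbered arrays of a vehicle set deviated together in all 12 pairs, with correlations of 0.22 to 0.86. Those of different sets did not, at -0.19 to 0.23. Different-numbered arrays of a set lay at -0.78 to 0.29. Deviations were taken from the group means and cancel within a group. The lower values of different-numbered arrays therefore follow in part from the same-numbered ones and are not separate evidence of pairing. On the slide of replicates 1 and 2, DMSO 1 with NP 2 and DMSO 2 with NP 1 gave 0.24 and 0.29. Same-numbered arrays there gave 0.31 and 0.33, so for NP the pairing was not clearly told from the slide. The numbers were taken to pair arrays within a set. The block within each set is given where it changes a call. Unless that block is named, the SE, p values and intervals come from a block shared by both sets. With the block within each set the SE for NP was smaller. It went from 0.110 to 0.057 for SHMT2, from 0.182 to 0.078 for MTHFD1L and from 0.123 to 0.109 for PSAT1.

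Alternatives were no replicate block, the block within each vehicle set, a slide term, normexp background correction (offset of 50, on the median spot signal), quantile normalization, the deposited table, other filters on dim probes, averaging over a gene's probes, fitting only the compared groups, the methods' paired t-test, DMSO, which the study's methods use, as the comparator for the biguanides, and leaving out each replicate. The 10 genes, the other lists, the rule naming genes (all 10, ATF4, cell type markers, pathway genes at an unadjusted p of at most 0.05 with a 1.5-fold change, and the 3 nearest transcripts of 4 genes) and the tests were chosen with earlier results of these data known. SLC1A4, SLC1A5, SRR, AMT, GLDC and MTR were named after their values were seen. Protein sequences were not used here.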

Additional observations from a re-analysis of the deposited data

How the results depend on the processing

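The calls after NP turned on the settings. With the replicate number as a block across both sets, with no replicate block, with the deposited table, with no filter on dim probes and in a fit of only the groups compared, 0 genes were called. PSAT1, PSPH and MTHFD2 (3 genes) were called with the replicate block within each vehicle set, with an added slide term, after quantile normalization, with probes well above background on all 15 arrays, and by the methods' paired t-test at an unadjusted p, which called 0 genes after Benjamini-Hochberg adjustment. Normexp background correction gave 2 (PSAT1 and PSPH) and averaging over probes 1 (PSPH). The same t-test run against water gave 1 for metformin (PSPH) and 2 for phenformin (PSAT1 and PSPH) before adjustment. Run against DMSO, as in the methods and chosen after seeing the data, it gave 0 for each. The cause was not tested. Leaving out each replicate in turn gave 0 calls, and the 3 comparisons between compounds gave 0 in each of 12 alternatives. Across 15 alternatives the NP change was 0.83 to 1.02 for PSPH, 0.66 to 0.92 for PSAT1 and 0.74 to 0.92 for MTHFD2.

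The mitochondrial minus cytosolic difference was 0.40 without ALDH1L2 for NP. For phenformin it was 0.14 with normexp, 0.15 with quantile normalization, 0.19 without ALDH1L2 and 0.13 without SLC25A32. Without each replicate in turn it was 0.23 to 0.35 for NP, -0.06 to 0.05 for metformin and 0.08 to 0.11 for phenformin.

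Directions that turned were those of changes near 0, of the dim ALDH1L2, or of biguanide changes taken against DMSO. In the last case vehicle and slide cannot be told apart. With DMSO as the comparator metformin gave -0.46 for PSAT1, -0.039 for PSPH, -0.29 for MTHFD2, -0.33 for MTHFD1L and -0.51 for SHMT1, and phenformin gave -0.24 for PSAT1, -0.067 for MTHFD2, -0.26 for MTHFD1L, 0.17 for ALDH1L2, 0.0042 for SLC25A32 and -0.52 for SHMT1. The MTHFD1L and SHMT1 directions against DMSO depended on the probe, and the values given are those of the brightest. Another MTHFD1L probe read 1.16, 1.45 and 1.255 after DMSO. It was higher with metformin, at 1.78, 1.79 and 1.82, and with phenformin, at 1.77, 1.70 and 1.85. The remaining MTHFD1L probe and the second SHMT1 probe overlapped DMSO for both biguanides. With DMSO as the comparator the median of all features moved to 0.13 and 0.07. With normexp SLC25A32 was -0.0058 after NP, ALDH1L2 0.059 and MTHFD1 -0.00901 after metformin, and ALDH1L2 0.017 after phenformin. ALDH1L2 was 0.048 after metformin in the deposited table and 0.000922 after phenformin with quantile normalization. Between compounds, ALDH1L2 with normexp was -0.13 for NP minus metformin, -0.084 for NP minus phenformin and -0.042 for phenformin minus metformin, where PHGDH was -0.028. In the deposited table ALDH1L2 was -0.080 for NP minus metformin and -0.31 for phenformin minus metformin, where SHMT1 was 0.013, and with quantile normalization ALDH1L2 was -0.28 for NP minus phenformin.

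Leaving out each replicate in turn also turned some directions. For NP the range was -0.076 to 0.0036 for SHMT1 and -0.093 to 0.0046 for MTHFD1. It was -0.053 to 0.057 for MTHFD1 after metformin, and -0.15 to 0.060 for SLC25A32 and -0.031 to 0.072 for SHMT1 after phenformin. PHGDH ranged from -0.067 to 0.21 for NP minus metformin and from -0.084 to 0.23 for NP minus phenformin, where SHMT2 ranged from -0.036 to 0.088, ALDH1L2 from -0.24 to 0.50 and SLC25A32 from -0.059 to 0.17. For phenformin minus metformin the ranges were -0.024 to 0.023 for PHGDH, -0.055 to 0.32 for ALDH1L2, -0.035 to 0.058 for SHMT1 and -0.022 to 0.064 for MTHFD1. Signal over background limits ALDH1L2.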
